A study of Mus musculus with 48 samples.

Results

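White adipose tissue (WAT) of old mice moved in opposite directions between 2 diets was compared at 26 months of age. The comparison used 10 of the 48 libraries of the study: 5 of ALDR mice, fully fed until late life and then put on dietary restriction, and 5 of DRAL mice, restricted from 12 weeks of age and then fed fully. The labels alone decided which libraries were used, and no measured value did. All animals were female C3B6F1 mice, a hybrid strain, kept 5 to a cage, and the labels call the libraries of a group biological replicates. Restricted (DR) mice received 60% of what fully fed (AL) mice ate. Both switches were made at 24 months, the age at which 20% of the AL controls had died, and restriction was phased in by 10% per week over 4 weeks. The protocol gives 27 months as the age at death where the labels give 26 months, and all mice were killed in the 3 h before the daily meal of the DR mice. Unswitched AL and DR mice of the same age (3 WAT libraries each, DR from 12 weeks) and young AL and ALDR mice of 5 months (3 each, ALDR restricted from 12 weeks) were used for reference. The protocol names epididymal fat although the mice were female, so the depot that was dissected is uncertain. The question was how far WAT of old mice takes on the expression of its present diet and how far it keeps that of its former diet.

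White fat stores triglyceride after meals and releases fatty acids between them, and it secretes hormones such as leptin and adiponectin. Its adipocytes sit in a scaffold of collagens and fibrillins made largely by fibroblasts and adipocyte progenitors, and contain their own circadian clock. In that clock CLOCK or NPAS2 pairs with BMAL1 (gene Arntl) to switch on the Per and Cry genes, whose proteins act back on the pair. The Rev-erb and ROR receptors act on Arntl, and PAR-domain factors such as DBP, TEF and HLF, opposed by NFIL3, carry the rhythm to other genes. Restricted mice fed 1 meal a day are known to take that meal as a timing cue.

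Some libraries stood apart. Total counts ran from 12247161 to 22500246 in the 10 libraries, so that 3 counts equalled 0.133 to 0.245 CPM (counts per 1000000 counted reads), a floor that covers counting error only. Summed CPM of 11 skeletal muscle markers was 3721 in ALDR replicate 2 and 1275 in ALDR replicate 5, against 18.4 to 57.0 in the other 8 libraries. It was 51.6 to 1103 in AL and 370.0 to 14998 in DR libraries. ALDR replicate 2 also held 2784 CPM of 8 liver markers, against 39.4 to 112 in the other 9 libraries, and ALDR replicate 1 held 176 CPM of 12 reproductive tract and mammary epithelium markers, against 14.9 to 55.9. Adipocyte markers summed to between 18764 and 23534 CPM in all 10 libraries, and 7 of 8 epididymis and testis markers had no count in any of them. Counts below are therefore also given without ALDR replicates 2 and 5, a choice made after seeing the data. ALDR replicate 4 stood apart in another way: in 1169 of the 1953 genes that differed between the groups (59.9%) it was the ALDR library nearest to DRAL, against 164 to 260 genes for each of the other 4.

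Late restriction and late refeeding left WAT with different expression of 1953 of 15828 genes tested (12.3%), by edgeR's quasi-likelihood test at a Benjamini-Hochberg adjusted p under 0.05. The 1009 genes higher in ALDR were 6.37% of those tested and the 944 lower in ALDR were 5.96%. Clock repressor and output genes and glucocorticoid-induced genes were among the higher ones. Clock activators, collagens, fibrillin and other matrix genes were among the lower ones. Some triglyceride synthesis and fatty acid uptake genes were higher too, but without ALDR replicates 2 and 5 only 1 of each list was. The median size of the difference among the 1953 genes was 0.56 on the log2 scale, and 478 genes reached a log2 difference of at least 1 in either direction, 300 higher and 178 lower. In 1419 genes (8.97% of those tested) the 5 ALDR and 5 DRAL libraries did not overlap, and 1031 of these passed the test. Without ALDR replicates 2 and 5 the count fell to 420 genes, 411 of them among the 1953. The log2 difference was then still 1 or more in 213 of the 289 higher genes of that size still tested, and -1 or less in 149 of the 178 lower ones. Leaving out single libraries gave 1103 genes without ALDR replicate 2, 1255 without ALDR replicate 3, 1102 without ALDR replicate 5, 1177 without DRAL replicate 3 and 1274 without DRAL replicate 4.

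The genes higher in ALDR with the smallest p, among those with a log2 difference of at least 1, no overlap and an established symbol, came from several functions. The limit on symbols left out 4930502E18Rik, a gene without an assigned function that met the other limits (log2 difference 2.94, edgeR adjusted p = 8.71e-05). Mbnl3, an RNA-binding splicing regulator, was at 18.9, 25.4, 18.3, 19.2 and 18.7 CPM in ALDR replicates 1 to 5 and at 7.45, 7.87, 6.56, 6.80 and 7.65 CPM in DRAL replicates 1 to 5. Its log2 difference of 1.47 (SE 0.13, edgeR adjusted p = 1.08e-05) was larger than the spread within either group. Sycp3, known as a protein of the synaptonemal complex of meiosis, was at 209, 193, 212, 165 and 198 CPM in ALDR and at 21.3, 49.1, 19.0, 13.2 and 39.0 CPM in DRAL. All ALDR libraries therefore lay above, and all DRAL libraries below, the 50.6 to 95.5 CPM of the 6 unswitched AL and DR libraries. The log2 difference of Sycp3 was 2.79 (SE 0.27, edgeR adjusted p = 1.61e-05). Inmt, an N-methyltransferase of indole amines, was at 282, 197, 123, 46.6 and 120 CPM in ALDR against 15.2, 10.5, 9.29, 8.14 and 21.4 CPM in DRAL. DRAL was below every unswitched library for Inmt, which ran from 44.3 to 161 CPM, while ALDR overlapped them. The fatty acid transport protein gene Slc27a1 was at 792, 743, 716, 310.2 and 938 CPM in ALDR and at 188 to 291 CPM in DRAL, and reached 1992 to 2147 CPM in lifelong DR. Within ALDR, replicate 4 was the lowest library for both Inmt and Slc27a1. The other genes of this group were Kiss1r, the kisspeptin receptor, St6galnac5, a sialyltransferase, Arhgap19, a GTPase-activating protein, Gramd1c, a sterol transfer protein, and the clock genes Per3 and Tef. Their log2 differences ran from 1.04 for Tef to 2.56 for St6galnac5.

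Among genes lower in ALDR, Mgl2, a lectin of macrophages and dendritic cells, was at 25.5, 29.6, 19.9, 24.2 and 22.4 CPM in ALDR and at 86.2, 83.9, 66.3, 84.5 and 59.4 CPM in DRAL. Its log2 difference was -1.64 (SE 0.16, edgeR adjusted p = 1.61e-05), and lifelong DR libraries (18.6 to 30.3 CPM) were in the range of ALDR or near it. Spon2, a secreted matrix protein, was at 10.3, 16.2, 12.4, 9.85 and 15.5 CPM in ALDR and at 69.1, 65.9, 44.8, 114 and 34.9 CPM in DRAL (log2 difference -2.35, SE 0.27, edgeR adjusted p = 8.71e-05). The receptor gene Tnfrsf12a was at 6.13 to 10.0 CPM in ALDR against 22.1 to 32.2 CPM in DRAL. The acute-phase gene Orm3 was at 1.66, 1.21, 1.64, 1.77 and 0.606 CPM in ALDR and at 8.70, 6.01, 7.49, 5.93 and 6.03 CPM in DRAL. No library of one group reached the range of the other in any of these 4 genes, which was a condition for naming them. The remaining genes of this group were the clock gene Arntl, the matrix genes Fbn1 and Col3a1, the hair keratin gene Krt36, the GTPase-activating protein gene Arhgap20 and the tubulin gene Tubb2a. Krt36 lay between 0.110 and 0.227 CPM in ALDR, around the level of 3 counts, and between 0.832 and 2.49 CPM in DRAL. Mgl2, Orm3 and Tubb2a have close paralogs, and how reads shared between them were counted is not given in the sources used here, so their values are less certain. All 20 genes named in these paragraphs stayed past the threshold in each of the 19 alternative analyses.

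Core clock genes differed between the switched groups. All 3 activator genes tested (Arntl, Npas2 and Clock) were lower in ALDR, and of 17 repressor and output genes 8 were higher and 1 was lower. Across all genes tested 12.3% passed. Arntl was at 7.79, 7.68, 8.38, 9.13 and 13.9 CPM in ALDR and at 27.5, 20.9, 25.6, 28.1 and 26.4 CPM in DRAL (log2 difference -1.46, SE 0.15, edgeR adjusted p = 1.84e-05). Npas2 was at 0.985 to 2.36 CPM in ALDR and 3.84 to 6.95 CPM in DRAL, and Clock at 111 to 145 CPM in ALDR and 175 to 193 CPM in DRAL. In none of the 3 did the groups overlap, which for Arntl was also a condition of its choice by small p. Per3, of the period family of repressors, was at 122, 119, 95.4, 99.1 and 85.6 CPM in ALDR and at 31.1, 43.0, 33.2, 23.5 and 34.3 CPM in DRAL (log2 difference 1.66, SE 0.16, edgeR adjusted p = 1.61e-05). The output factor gene Tef was at 177 to 232 CPM in ALDR against 78.7 to 124 CPM in DRAL (log2 difference 1.04, SE 0.12). Nfil3, which opposes the output factors, was lower in ALDR by a log2 difference of -0.86 (SE 0.18, edgeR adjusted p = 0.00582), with overlapping libraries. Dbp was at 39.1, 39.5, 23.7, 53.9 and 18.8 CPM in ALDR and at 14.9, 21.7, 10.5, 16.6 and 10.5 CPM in DRAL, and its groups overlapped at 1 library each (log2 difference 1.24, SE 0.26, edgeR adjusted p = 0.00731). Per2, Nr1d2, Hlf and Rora also rose, and were named after their values were seen. The Rev-erb gene Nr1d1 did not pass (log2 difference -0.14, edgeR adjusted p = 0.784). Without ALDR replicates 2 and 5 the counts were again 3 lower activators and 8 higher and 1 lower repressor or output genes.

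**Figure D1:**
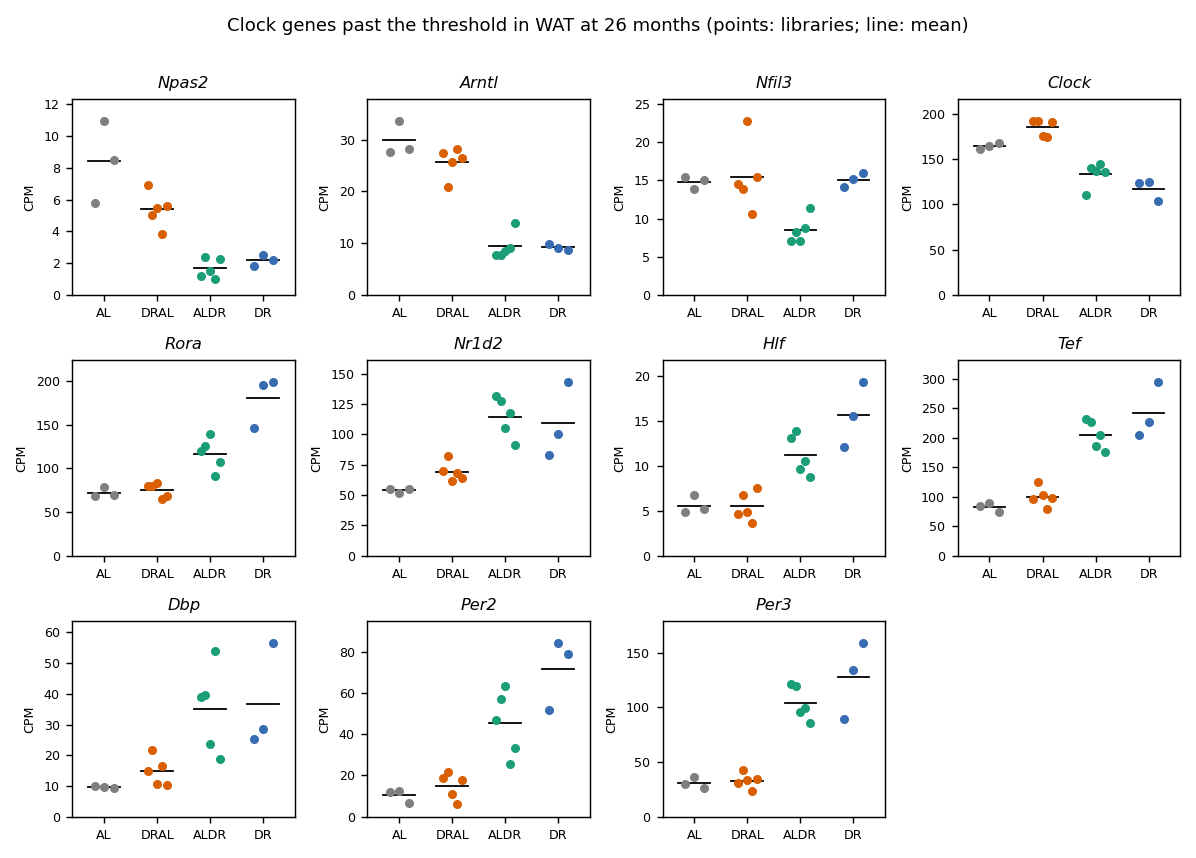
CPM of 11 clock genes past the threshold, 1 point per WAT library of 26 months (3 AL, 5 DRAL, 5 ALDR, 3 DR) with group means as lines; axes start at 0. For Arntl the ALDR libraries (7.68 to 13.9 CPM) lie beside those of DR (8.71 to 9.91 CPM) and the DRAL libraries (20.9 to 28.1 CPM) near those of AL (27.7 to 33.6 CPM).

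Among the 12 clock genes past the threshold, all but Nfil3 also passed in the same direction between lifelong DR and AL. In DR minus AL, measured in other libraries, Arntl differed by -1.70, Npas2 by -1.95, Clock by -0.49, Per3 by 2.05, Tef by 1.56 and Dbp by 1.92 on the log2 scale, each past the threshold. Nfil3 differed by 0.03 in DR minus AL (edgeR adjusted p = 0.949). All mice were sampled in 1 window of the day, so a shift of the clock in time and a change of its mean level cannot be told apart.

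Sequences just upstream of the clock genes are shown for the 3 with the smallest p in the comparison, since these genes are known to be read through short motifs there. They are RefSeq windows on build GRCm38.p6, the build family named in the submitters' processing notes, from 250 bases before to 50 bases after the start of transcription, 5′ to 3′ on the gene's strand. Capitals mark matches, on either strand, to the E-box CACGTG (bound by CLOCK-BMAL1), the D-box TTACGTAA or TTATGTAA (bound by DBP, TEF, HLF and NFIL3) or the ROR and Rev-erb core TAGGTCA. Where a gene had 2 windows, the one with more matches is shown, or the first listed if they were equal. The windows are Per3 (ENSMUSG00000028957) at chr4:151044616-151044915 on the minus strand, Arntl (ENSMUSG00000055116) at chr7:113207261-113207560 on the plus strand and Tef (ENSMUSG00000022389) at chr15:81802423-81802722 on the plus strand.
Per3: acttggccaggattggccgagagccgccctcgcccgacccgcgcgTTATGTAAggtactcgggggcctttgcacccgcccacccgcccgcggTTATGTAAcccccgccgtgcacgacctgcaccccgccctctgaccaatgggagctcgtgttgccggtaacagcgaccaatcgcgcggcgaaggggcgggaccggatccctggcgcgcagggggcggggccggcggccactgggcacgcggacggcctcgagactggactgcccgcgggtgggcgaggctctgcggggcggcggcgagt
Arntl: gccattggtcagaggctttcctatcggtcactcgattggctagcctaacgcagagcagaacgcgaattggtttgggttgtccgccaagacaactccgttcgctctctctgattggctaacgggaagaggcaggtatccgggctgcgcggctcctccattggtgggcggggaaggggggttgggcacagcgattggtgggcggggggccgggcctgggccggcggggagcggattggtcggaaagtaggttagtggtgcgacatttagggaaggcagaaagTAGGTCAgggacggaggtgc
Tef: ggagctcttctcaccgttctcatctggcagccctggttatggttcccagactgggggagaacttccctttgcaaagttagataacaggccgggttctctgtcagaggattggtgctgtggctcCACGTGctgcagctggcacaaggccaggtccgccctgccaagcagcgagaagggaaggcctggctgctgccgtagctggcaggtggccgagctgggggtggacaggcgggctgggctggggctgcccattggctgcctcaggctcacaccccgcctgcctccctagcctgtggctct
The Per3 window held 2 D-box matches, at 205 and 158 bases before the start. The Arntl window held 1 ROR core match at 31 bases after the start, within transcribed sequence, and the Tef window 1 E-box match at 127 bases before the start. Of 32851 windows in the table, 7.15% held the E-box, 1.06% a D-box and 2.61% the ROR core. Of the 12 clock genes past the threshold 10 had a window, and 1 of these held an E-box, 1 a D-box and 2 the ROR core. A match is a string of letters, not a measured binding site, and binding was not measured here.

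Some genes known to be induced by glucocorticoids, the stress hormones that rise before an expected meal, were higher in ALDR. Of 17 tested, 7 were higher, 1 was lower and 9 did not pass, and the list's median log2 difference was 0.80, against 0.02 over all genes tested and with 12.3% of all genes passing. Without ALDR replicates 2 and 5, 6 were higher and 1 was lower (median 0.81). Mt2, a metallothionein that binds zinc and copper, was at 12.9, 40.6, 17.9, 26.3 and 19.6 CPM in ALDR and at 6.07, 5.85, 2.44, 7.21 and 4.41 CPM in DRAL (log2 difference 2.17, SE 0.31, edgeR adjusted p = 0.000516). Its neighbour in function, Mt1, differed by 1.69 (SE 0.25). Hsd11b1, the enzyme that regenerates active glucocorticoid inside cells, was at 253, 263, 277, 121 and 243 CPM in ALDR against 85.2, 51.8, 87.6, 98.0 and 87.1 CPM in DRAL (log2 difference 1.50, SE 0.22, edgeR adjusted p = 0.000662). Again ALDR replicate 4 was the lowest of its group and no library overlapped. The lower gene was Cdkn1a, an inhibitor of the cell cycle, at 10.5 to 17.6 CPM in ALDR and 22.2 to 30.1 CPM in DRAL (log2 difference -0.90). Fkbp5, Sgk1, Zbtb16 and Klf9 were the other 4 higher genes, named after their values were seen. In DR minus AL, 7 genes of the list were higher and 1 lower, but Mt2 was the lower one there.

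Matrix genes were the list with the most members lower in ALDR. Of 26 collagen and extracellular matrix genes tested, 14 were lower and 2 higher in ALDR, with a median log2 difference of -0.66, where 5.96% of all genes were lower and 6.37% higher. Fbn1, which encodes fibrillin-1, was at 231, 352, 362, 291 and 201 CPM in ALDR and at 941, 1324, 887, 1144 and 805 CPM in DRAL (log2 difference -1.83, SE 0.21, edgeR adjusted p = 8.71e-05). Col3a1, a fibrillar collagen, was at 984, 1033, 1162, 2182 and 1194 CPM in ALDR and at 2923, 4048, 3872, 3726 and 3109 CPM in DRAL (log2 difference -1.43, SE 0.20, edgeR adjusted p = 0.000429). Loxl2, a collagen cross-linking enzyme, was at 18.4 to 29.6 CPM in ALDR against 30.9 to 54.0 CPM in DRAL (log2 difference -0.91, SE 0.17). None of the 3 overlapped between groups, which for Fbn1 and Col3a1 was a condition of their choice by small p. The higher members were Lox, another cross-linking enzyme (log2 difference 0.61, SE 0.17), and Spp1, the osteopontin gene known from macrophages (log2 difference 1.97, SE 0.57). In 12 of the 14 lower genes ALDR replicate 4 had the highest value among ALDR libraries. Without ALDR replicates 2 and 5 the median was -0.69, but only 3 genes were called lower (Fbn1, Col3a1 and Loxl2) and none higher, and without DRAL replicate 4 the counts were 14 lower and 1 higher. The lower genes numbered 9 without ALDR replicate 3, DRAL replicate 2 or DRAL replicate 3, and Lox and Spp1 did not pass without ALDR replicate 2 or 3 or DRAL replicate 1, 3 or 4. In DR minus AL 19 of the 26 were lower and none was higher.

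**Figure D2:**
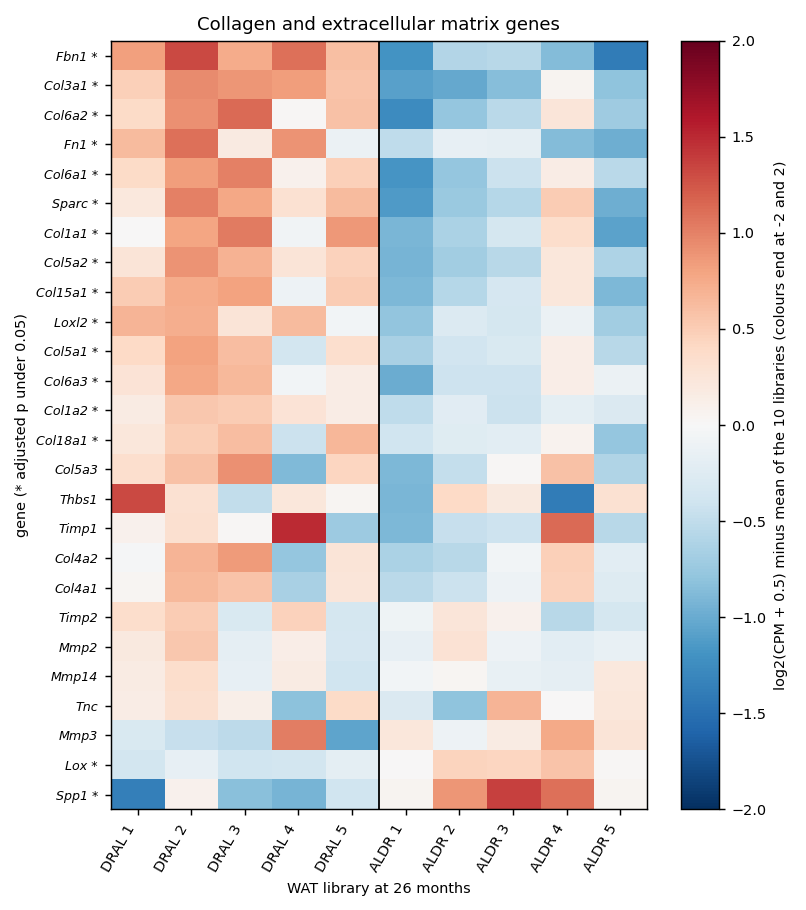
Heat map of the 26 collagen and matrix genes (rows, ordered by the difference) in the 5 DRAL and 5 ALDR WAT libraries of 26 months (columns). Colour is log2(CPM + 0.5) minus the mean of the 10 libraries, and asterisks mark the 16 genes past the threshold; ALDR replicate 4 is paler than the other ALDR libraries in most of the upper rows.

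Some fibroblast and progenitor markers were lower in ALDR too. Of 9 such markers 3 were lower (Dpp4, Pi16 and Cd34) and none was higher, where 5.96% of all genes were lower. The counts were 1 lower without ALDR replicates 2 and 5, and 2 lower and 1 higher without DRAL replicate 4. Their summed level was 1492 to 2154 CPM in ALDR and 1444 to 3891 CPM in DRAL, highest in DRAL replicate 4. None of the 9 was at 0 in all libraries. Of 7 mesothelial markers Wt1 alone was lower, with summed levels of 121 to 355 CPM in ALDR and 208 to 657 CPM in DRAL. In bulk tissue fewer cells of a type and less RNA per cell cannot be told apart, and the part of these cells in the matrix difference was not tested. Of 16 macrophage markers 1 passed (Mpeg1, higher in ALDR), with summed levels of 2526 to 3818 CPM in ALDR and 2240 to 5254 CPM in DRAL. Neither Wt1 nor Mpeg1 passed without ALDR replicates 2 and 5, nor without DRAL replicate 4. Both counts turned on single libraries. Of the macrophage markers 3 were higher without DRAL replicate 2 and 2 without ALDR replicate 4, but 2 were lower and none higher without DRAL replicate 5, and 1 was lower and none higher without ALDR replicate 3. With 1 higher there was also 1 lower without ALDR replicate 1 or 2, and no marker passed without ALDR replicate 5 or DRAL replicate 1, 3 or 4. The lower mesothelial markers numbered 3 without DRAL replicate 5 and none without ALDR replicate 3, 4 or 5 or DRAL replicate 1, 2 or 4. No direction is therefore given for these cell types. None of 12 T and NK cell, 8 B and plasma cell, 9 endothelial or 10 adipocyte markers passed, though 1 endothelial and 1 adipocyte marker were lower without ALDR replicate 4 and 1 adipocyte marker was higher without DRAL replicate 5. Of 11 muscle markers 10 were higher in ALDR, and none passed without replicates 2 and 5; 2 were higher without ALDR replicate 2 alone and 6 without DRAL replicate 3. Of 7 tested markers of reproductive tract and mammary epithelium 3 were higher in ALDR (Cdh1, Ovgp1 and Wfdc2), and 2 without ALDR replicates 2 and 5. Only 1 was higher without ALDR replicate 1, of 6 then tested, and only 1 without DRAL replicate 1, 2, 3 or 4. With a muscle marker score as covariate 667 genes passed in WAT, and without ALDR replicate 1, which held the epithelial RNA, 1352 did; the part of muscle or epithelial RNA in single differences was not tested further.

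Genes of fat storage and use differed in small numbers. The share past the threshold was 40% of triglyceride synthesis genes and 23.1% of uptake and binding genes. At 12.5% of lipolysis, 11.1% of fatty acid synthesis and 10% of beta oxidation genes it was no higher, or hardly higher, than the 12.3% of all genes. Of 15 triglyceride synthesis genes 5 were higher and 1 was lower in ALDR (median log2 difference -0.07). The higher genes with the smallest p were the acyltransferase genes Gpat4 (0.59, SE 0.13) and Dgat1 (0.56, SE 0.13) and the lipin gene Lpin2 (0.43, SE 0.12), each given as a log2 difference. The lower one, Mogat2, a monoacylglycerol acyltransferase, differed by -1.60 (SE 0.41). Of 13 uptake and binding genes 3 were higher: Slc27a1 (1.58, SE 0.22), the acyl-CoA synthetase gene Acsl1 (0.83, SE 0.18) and Gpihbp1, which anchors lipoprotein lipase at capillaries (0.78, SE 0.20). Of 18 fatty acid synthesis genes only Acacb and Scd1 passed, at 1.20 (SE 0.38) and 1.02 (SE 0.28). Of 16 lipolysis and lipid droplet genes Pde3b, an insulin-activated phosphodiesterase, was higher (0.79, SE 0.16) and G0s2, an inhibitor of adipose triglyceride lipase, was lower (-0.60, SE 0.16). Of 20 beta oxidation and ketogenesis genes Pdk4 (1.37, SE 0.34) and Ppara (0.90, SE 0.26) were higher. Of all these genes only Gpat4 and Slc27a1 passed without ALDR replicates 2 and 5. Log2 differences were then 0.43 for Dgat1, 0.78 for Acsl1, 0.66 for Gpihbp1, 1.12 for Scd1, 1.19 for Acacb and 0.87 for Pdk4, and why the calls were lost was not tested. Acacb passed in 6 of the 19 alternatives, and Scd1 did not pass without ALDR replicate 2, DRAL replicate 2 or DRAL replicate 4, each of which left the fatty acid synthesis list with no call. The higher triglyceride synthesis genes numbered 2 without ALDR replicate 1, 2 or 3 or DRAL replicate 3 (Lpin2 was lost in each), and 3 without DRAL replicate 2. The lower ones numbered 3 without ALDR replicate 4 and 2 without ALDR replicate 3 or DRAL replicate 1. Leaving out ALDR replicate 4 also gave 2 lower uptake and binding genes, 3 higher lipolysis genes, 3 higher beta oxidation genes and 1 lower fatty acid synthesis gene. Mogat2 did not pass without ALDR replicate 5, nor Ppara without ALDR replicate 1 or 2 or DRAL replicate 1, 2 or 3.

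For key enzymes of fatty acid synthesis, the means of both switched groups lay between those of lifelong AL and DR. Fasn, the fatty acid synthase gene, was at 10148, 6256, 6688, 4184 and 5410 CPM in ALDR and at 4986, 2034, 6939, 1795 and 5112 CPM in DRAL. These ranges overlapped and the difference did not pass (log2 0.65, SE 0.33, edgeR adjusted p = 0.199), while lifelong AL was at 1789 to 3461 CPM and lifelong DR at 28547 to 35590 CPM. Acaca, which makes malonyl-CoA, differed by 0.77 (SE 0.30, edgeR adjusted p = 0.102), with 1149 to 3395 CPM in ALDR and 597 to 1651 CPM in DRAL. It passed only without ALDR replicate 4, at 0.92. The elongase gene Elovl6 differed by 0.32 (SE 0.42, edgeR adjusted p = 0.647), a direction that turned without ALDR replicate 1 (-0.16). Lifelong DR was at 1934 to 2984 CPM for Elovl6 and at 8611 to 10125 CPM for Acaca, with no overlap with any switched library.

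**Figure D3:**
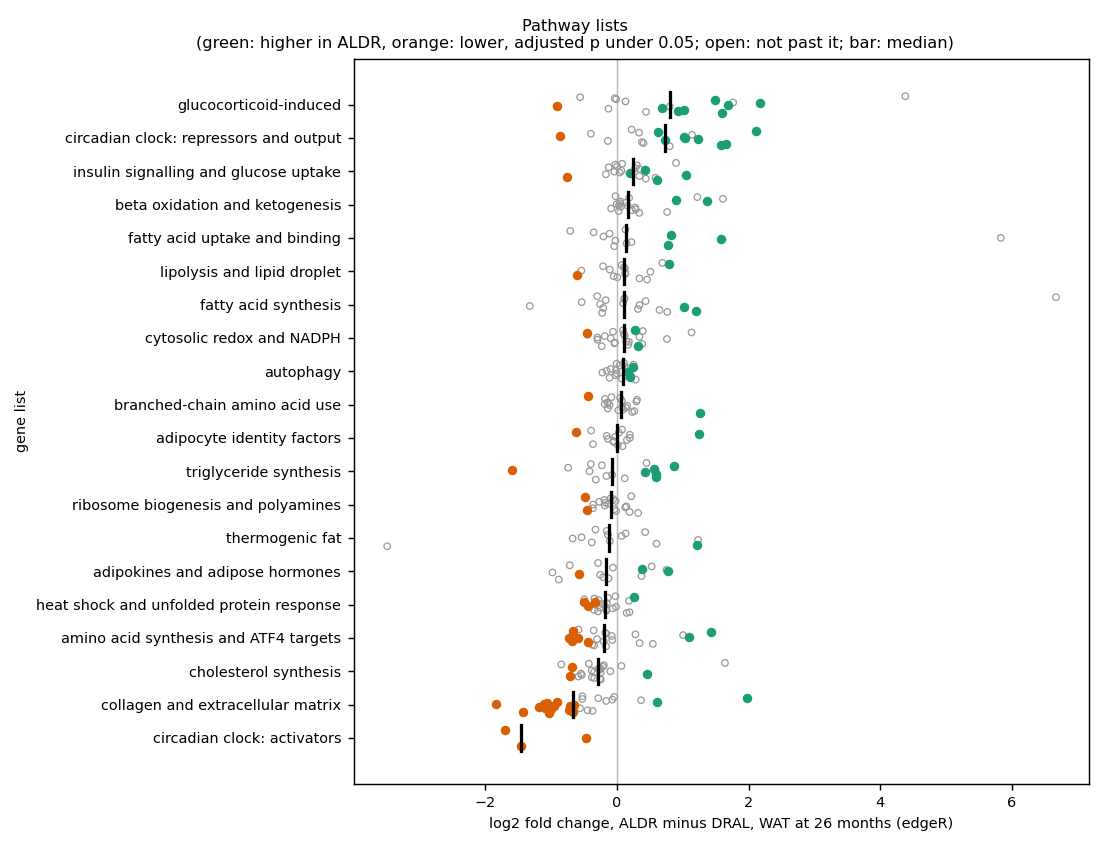
Log2 difference (ALDR minus DRAL, edgeR) of every tested gene in 20 pathway lists, 1 point per gene; filled green points are higher and filled orange points lower in ALDR past the threshold, open points are not past it, and black bars are medians. The clock activators (median -1.46) and the matrix genes (-0.66) lie to the left and the glucocorticoid-induced genes (0.80) and clock repressors and output genes (0.73) to the right; most other medians lie near 0.

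Hormone and nutrient signalling genes moved in small numbers. The share past the threshold was 21.4% of adipokine and 25% of insulin signalling genes. It was 31.8% of amino acid synthesis and ATF4 target genes and 17.4% of heat shock genes, against 12.3% of all genes. Of 14 adipokine genes Nrg4 (0.78, SE 0.19) and Nampt (0.38, SE 0.12) were higher and Rarres2, the chemerin gene, was lower (-0.57, SE 0.13). Nampt passed in only 3 of the 19 alternatives, and in 1 of the 10 that left out a single library (ALDR replicate 4). Without that library 3 adipokine genes were lower. Lep, the leptin gene, was at 790, 1075, 1273, 2578 and 494 CPM in ALDR and at 1729, 2802, 2559, 1703 and 2637 CPM in DRAL. Of the ALDR libraries 4 were below every DRAL library and replicate 4 was within their range, and the difference did not pass (log2 -0.88, SE 0.36, edgeR adjusted p = 0.112), though it did without ALDR replicate 4, at -1.33. Adipoq, the adiponectin gene, differed by -0.13 (SE 0.10, edgeR adjusted p = 0.435). Of 20 insulin signalling genes 4 were higher, among them Insr (0.61, SE 0.15), Igfbp3 (1.05, SE 0.27) and Pik3ca (0.21, SE 0.06), and Igf1, the growth factor gene, was lower at -0.75 (SE 0.14, edgeR adjusted p = 0.00364). Igf1 was at 143 to 274 CPM in ALDR and 269 to 345 CPM in DRAL, and of this list it alone passed without ALDR replicates 2 and 5. Only 1 gene of the list was higher without DRAL replicate 3 or 4, and 2 were without ALDR replicate 2 or 3. Of 22 amino acid synthesis and ATF4 target genes 5 were lower, among them Psph, Pycr1 and Nupr1, and Chac1 and Gdf15 were higher. Of 23 heat shock and unfolded protein genes 3 were lower (Pdia6, Hspe1 and Calr) and Herpud1 was higher. With 1 library left out the lower genes numbered 3 to 8 in the ATF4 list (3 without ALDR replicate 2, 3 or 5 or DRAL replicate 2, and 8 without ALDR replicate 4). In the heat shock list they numbered 1 to 5 (1 without ALDR replicate 3 or DRAL replicate 3 or 4, and 5 without ALDR replicate 4 or DRAL replicate 1). Gdf15 did not pass without ALDR replicate 3 or 5 or DRAL replicate 1, 3, 4 or 5, nor Herpud1 without ALDR replicate 1 or 2 or DRAL replicate 1 or 3. Calr passed in 8 of the 19 alternatives. With 1 library left out it passed only without ALDR replicate 4 or DRAL replicate 1. Leaving out ALDR replicates 2 and 5 left no call among the adipokine and ATF4 target genes and 1 lower heat shock gene. The medians of these lists were then -0.21, -0.17 and -0.24 on the log2 scale, against -0.17, -0.19 and -0.19 with all libraries. Why the calls were lost was not tested. In the lists of cholesterol synthesis (3 of 23), adipocyte identity (2 of 16), branched-chain amino acid use (2 of 20), thermogenic fat (1 of 14), redox and NADPH (3 of 23), ribosome biogenesis and polyamines (2 of 19) and autophagy (3 of 20), the share past the threshold was 7.14% to 15.0%, around the 12.3% of all genes. Without ALDR replicates 2 and 5 there was 1 higher branched-chain gene and 1 lower ribosome biogenesis gene, and no other gene of these 7 lists passed. Single libraries moved these small counts too: lower cholesterol synthesis genes numbered 9 without ALDR replicate 4 and none without ALDR replicate 3 or 5, and higher autophagy genes none without ALDR replicate 2 and 1 without ALDR replicate 5 or DRAL replicate 4. Higher redox genes numbered 4 without ALDR replicate 4 and none without ALDR replicate 1 or 2 or DRAL replicate 2. The identity, branched-chain and ribosome lists moved by at most 1 gene in either direction.

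The late switches were then set beside lifelong feeding, in which DR differed from AL in 4114 genes (26.0%). The 2 comparisons share no library. Of the 1953 genes that differed between ALDR and DRAL, 1446 (74.0%) had the same direction in DR minus AL, against 57.6% of the 13875 genes that did not pass. Both comparisons called 775 genes, which were 39.7% of the ALDR against DRAL list and 18.8% of the DR against AL list. The direction was the same in 672 of them and opposite in 103. Muscle RNA was high in some libraries of both ALDR and DR: of 11 muscle markers 10 were higher in ALDR than in DRAL and 5 higher in DR than in AL. Without the 5 libraries of 26 months that held over 1000 CPM of muscle markers, which left 1 DR library, 70.1% of the 1945 genes still tested had a common direction, against 51.0% of the genes that had not passed. That choice too was made after seeing the data. Of the 20 genes described above for their small p, 10 passed in the same direction in DR minus AL (Per3, Tef, Slc27a1, Mgl2, Arntl, Spon2, Fbn1, Tnfrsf12a, Col3a1 and Tubb2a), 2 in the opposite direction (Arhgap19 and Orm3) and 8 did not pass there. The left-out 4930502E18Rik passed in the opposite direction (-4.62).

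**Figure D4:**
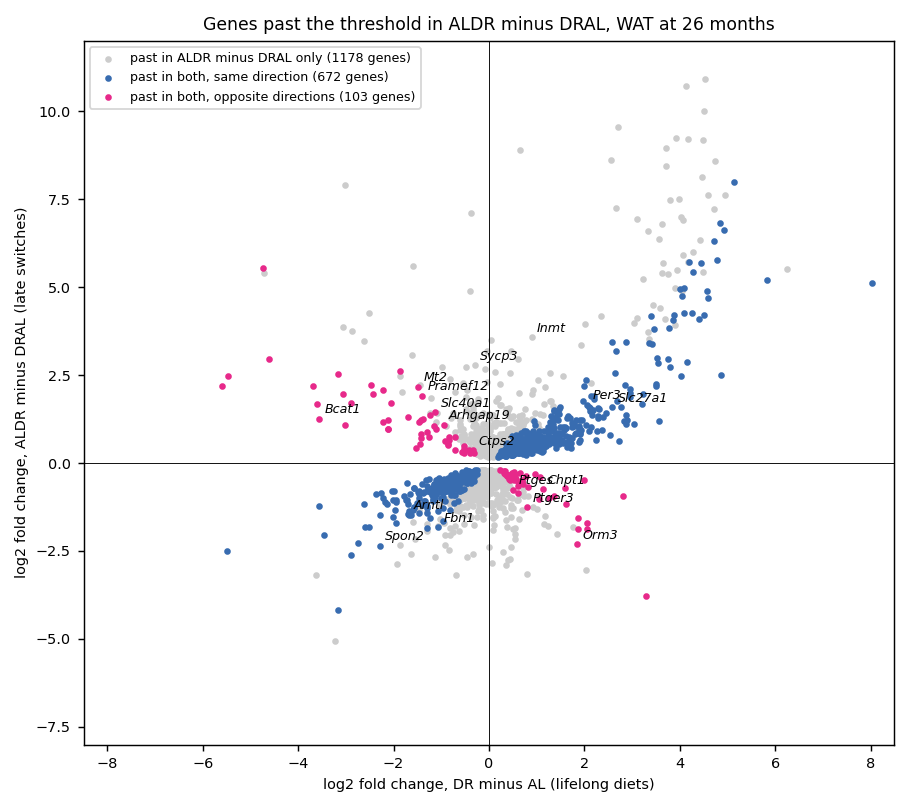
Log2 differences of the 1953 genes past the threshold in ALDR minus DRAL (vertical axis) against those in DR minus AL (horizontal axis), both in WAT at 26 months. Blue points (672 genes) passed both in the same direction, pink points (103 genes) passed both in opposite directions and grey points (1178 genes) passed in ALDR minus DRAL only; Bcat1 and Mt2 are in the upper left quadrant, Orm3 and Ptger3 in the lower right.

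The 103 opposite genes, 53 higher and 50 lower in ALDR, were those in which the formerly fed and formerly restricted mice differed in the same way with and without a late switch. The values that follow chose these genes and are given as a description. Among the 5 higher genes with the smallest p and an established symbol, Slc40a1, the iron exporter ferroportin, was at 59.0, 81.4, 62.4, 51.2 and 83.2 CPM in ALDR and at 19.0, 33.6, 25.4, 19.4 and 27.3 CPM in DRAL, with 32.2 to 61.9 CPM in AL and 16.6 to 29.3 CPM in DR. Arhgap19 was at 34.7 to 47.4 CPM in ALDR and 14.8 to 23.4 CPM in DRAL, beside 26.6 to 46.4 CPM in AL and 17.1 to 20.5 CPM in DR. Mt2, Pramef12 and Ctps2, a CTP synthase, were likewise higher in ALDR than in DRAL and higher in AL than in DR. Ctps2 had a small log2 difference of 0.37 but no overlap, which was a condition for naming it. Among the lower genes, Chpt1, of phosphatidylcholine synthesis, was at 839 to 1051 CPM in ALDR and 726 to 1023 CPM in AL, and at 1327 to 1840.2 CPM in DRAL and 1697 to 2112 CPM in DR. The prostaglandin E synthase gene Ptges and the prostaglandin E receptor gene Ptger3 were both in this group, at log2 differences of -0.76 and -1.25, and so was Orm3. Pramef12 belongs to a multigene family, so its value is less certain.

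Bcat1, which starts branched-chain amino acid breakdown in the cytosol, had the same pattern. It was at 7.56, 12.8, 6.22, 9.85 and 8.34 CPM in ALDR and at 2.50, 4.89, 4.06, 3.66 and 3.65 CPM in DRAL, beside 6.70 to 14.3 CPM in AL and 0.680 to 1.10 CPM in DR. ALDR overlapped AL and did not overlap DRAL (log2 difference 1.26, SE 0.22, edgeR adjusted p = 0.002). Few of the 103 genes were in the lists used here: Bcat1, Mt2, Spp1 and the macrophage marker Mpeg1. In young mice restricted until 5 months, in libraries used in neither comparison, ALDR differed from AL in 29.2% of all genes. Of the 103 genes, 93 (90.3%) had the direction of lifelong DR minus AL there and 49 (47.6%) passed the test in that direction. The corresponding shares were 95.5% and 78.7% for the 672 genes of equal direction, 95.2% and 64.1% for the 3339 genes that passed in DR minus AL only, and 76.5% and 28.0% for all genes tested. The 103 genes were thus not above the other genes that passed in DR minus AL, and the difference between these shares was not tested.

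**Figure D5:**
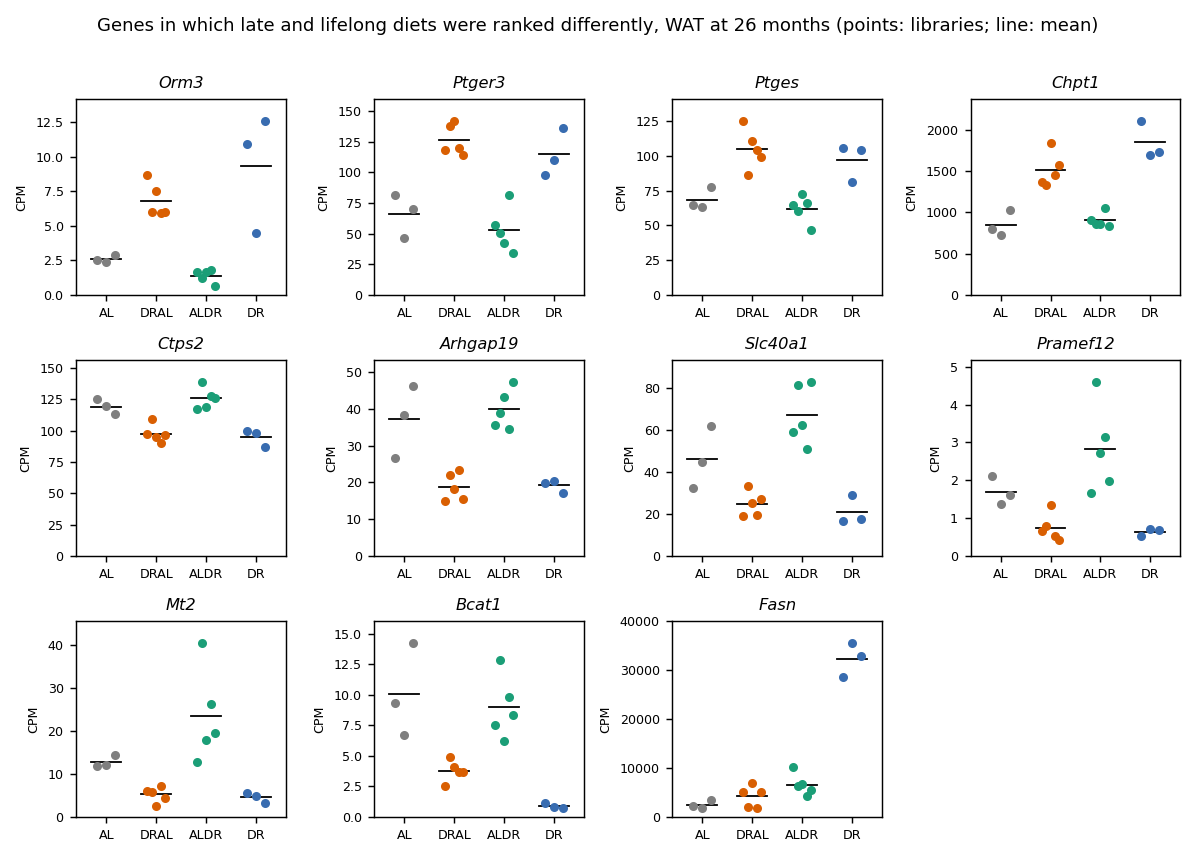
CPM of 9 genes with opposite directions, and of Bcat1 and Fasn, 1 point per WAT library of 26 months with group means as lines; axes start at 0. In Chpt1 the ALDR points (839 to 1051 CPM) lie with AL (726 to 1023 CPM) and most DRAL points below DR; in Fasn both switched groups (1795 to 10148 CPM) lie far below DR (28547 to 35590 CPM).

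Former diet was also tested over all 4 old groups, as the mean of DR and DRAL minus the mean of AL and ALDR. This test asks whether ALDR minus DRAL differs from DR minus AL. It called 2037 genes (12.9%), 1069 with a positive and 968 with a negative contrast, and 10 of the 20 genes described above for their small p were among them. Since ALDR minus DRAL is part of this contrast, the choice of those 20 genes fixed their calls in part, and the count is a description. For Arntl and Per3 it gave -0.12 (SE 0.12, edgeR adjusted p = 0.549) and 0.20 (SE 0.13, edgeR adjusted p = 0.344). For Col3a1 and Fbn1 it gave 0.06 (SE 0.16, edgeR adjusted p = 0.832) and 0.38 (SE 0.17, edgeR adjusted p = 0.138). For Mbnl3 and Sycp3 it gave -0.90 and -1.54, with edgeR adjusted p of 6.18e-05 and 0.000201. Of 26 matrix genes 2 passed and of 3 clock activators none, while of 18 fatty acid synthesis genes 12 had a positive contrast, and of 16 macrophage markers 14 had a negative and 1 a positive contrast. These contrasts do not show a difference between the switched groups: in ALDR minus DRAL no fatty acid synthesis gene passed as lower, and Mpeg1 was the only macrophage marker past the threshold. For Fasn, Acaca and Elovl6 the mean was higher in ALDR (6537, 2099 and 258 CPM) than in DRAL (4173, 1235 and 207 CPM), the sign of DR minus AL at a smaller size. None of these 3 differences passed, and that of Elovl6 turned without ALDR replicate 1. Summed macrophage markers were 3978 to 6286 CPM in AL and 932 to 1368 CPM in DR, with both switched groups between them except for 1 DRAL library. The count of former diet genes was 1308 without AL replicate 2, 1349 without DR replicate 3 and 222 without the 5 libraries of 26 months that held over 1000 CPM of muscle markers, which left 1 DR library assumed to vary like the other groups.

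The same switches in brown adipose tissue (BAT, 5 ALDR and 3 DRAL libraries) and liver (3 and 3) were used as a reference from other libraries. The labels do not say whether tissues came from the same mice. BAT called 279 genes (2.02%) and liver 3038 (23.8%). Of the genes past the threshold in WAT, 71.8% of 1790 tested in BAT had the same direction there, against 58.9% of those not past it, and 68.8% of 1585 tested in liver against 58.4%. BAT and WAT both called 102 genes, 95 in the same direction, and liver and WAT both called 458, 387 in the same direction. Of 49 genes called in all 3 tissues 46 had 1 direction. They included Per2 (log2 difference 1.56 in BAT and 1.53 in liver), Fkbp5 (2.07 and 0.66) and Zbtb16 (2.45 and 2.22), each named after its values were seen. Arntl was lower in liver (-1.24, edgeR adjusted p = 0.00826) and differed by 0.13 in BAT (edgeR adjusted p = 0.864). Of the matrix genes 14 of 26 were lower in WAT, 1 of 26 in BAT and 6 of 23 in liver. Over all genes tested 944 of 15828 were lower in WAT, 118 of 13845 in BAT and 1652 of 12761 in liver. The BAT count was unstable: it was 737 without ALDR replicate 1, 138 without ALDR replicate 2, 108 without ALDR replicate 4, 35 without DRAL replicate 1 and 42 without DRAL replicate 2.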

How the data were processed

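RNA-seq counts per gene and library were used as deposited for WAT (22 libraries), BAT (20) and liver (6). Per the labels' protocols, rRNA-depleted total RNA of WAT and liver was read strand-specifically from both ends (100 bp), and polyA RNA of BAT from 1 end (150 bp). Per the submitters' processing notes, Trim Galore 0.3.7, TopHat2 2.0.14, DESeq2 and GRCm38 were used; the counting program and annotation are not given in the sources used here. Tissues were fitted separately, and levels were not compared between them. All libraries of a tissue entered 1 fit of group means, with TMM scaling, edgeR's filter on low counts and its quasi-likelihood test (edgeR 4.0.16, R 4.3.3), Benjamini-Hochberg adjusted over all genes tested, at a threshold of 0.05. CPM values are scaled by TMM. The test was tested on simulated data first. Symbols came from a GENCODE M21 list for 25012 of 25913 identifiers.

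Genes were named by 4 rules: the 10 higher and 10 lower genes of smallest p with an absolute log2 difference of at least 1, no overlap and a symbol that is not provisional (such as those ending in Rik or starting with Gm and a number); the 5 higher and 5 lower of smallest p with an opposite call in DR minus AL and the same limits on symbol and overlap; up to 3 per direction in each pathway list; and 9 genes listed whatever their result. The comparison, genes and lists were chosen with earlier results of these data known. Replicate numbers were checked for pairing: deviations of same-numbered ALDR and DRAL libraries correlated by -0.10 to 0.19, over 0.1 in 1 of 5 pairs, and were not treated as pairs. No 2 of the 10 libraries agreed within sampling noise. Alternatives were DESeq2's size factors, DESeq2 1.42.0, limma voom (limma 3.58.1), no filter, only the compared groups, a replicate block, a muscle score as covariate and leaving out libraries. Some genes are not reported here.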

Additional observations from a re-analysis of the deposited data

Results flagged for a closer look

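Among 102 groups of 5 values checked for a sample far from the rest, 6 were picked out, where chance picks about 1 in 20. The measure is the sample's gap to its nearest neighbour as a share of the group's range, with a critical value of 0.71 for 5 samples. Mbnl3 was high in ALDR replicate 2 (25.4 CPM against 18.3 to 19.2, share 0.863). Arntl was high in ALDR replicate 5 (13.9 CPM against 7.68 to 9.13, share 0.769). Col3a1 was high in ALDR replicate 4 (2182 CPM against 984 to 1194, share 0.825). Elovl6 was high in ALDR replicate 1 (553 CPM against 148 to 218, share 0.827). The liver marker sum was high in ALDR replicate 2 (2784 CPM against 55.5 to 112, share 0.979). The reproductive tract and mammary epithelium sum was high in ALDR replicate 1 (176 CPM against 14.9 to 22.6, share 0.952).

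The effect of diet differed between mice that were switched late and mice that were not in 22 of 34 named genes, by the former diet test (edgeR adjusted p under 0.05), which 12.9% of all genes passed, and in 15 of these the directions were opposite. Most of the 34 were chosen for a small p in ALDR minus DRAL, which is part of the former diet contrast, so the count is a description and supports nothing. The contrast (mean of DR and DRAL minus mean of AL and ALDR, log2) was positive for Orm3 (2.07), Krt36 (1.25), Arhgap20 (0.72), Ptger3 (1.02), Chpt1 (0.93) and Ptges (0.63). The fatty acid synthesis genes Fasn (1.53), Acaca (1.63) and Elovl6 (2.52) also had a positive contrast. It was negative for Mbnl3 (-0.90), Sycp3 (-1.54), Kiss1r (-0.77), Inmt (-1.34), St6galnac5 (-1.06), Arhgap19 (-1.02) and Gramd1c (-0.78). Mt2 (-1.83), Slc40a1 (-1.28), Pramef12 (-1.66), Ctps2 (-0.35), Lep (-1.07) and Bcat1 (-2.41) were negative as well. For Fasn, Acaca, Elovl6 and Lep, ALDR minus DRAL had the sign of DR minus AL and was smaller, so the contrast does not show a higher or lower level in formerly restricted mice after the switch: mean Lep was 2286 CPM in DRAL and 1242 CPM in ALDR. None of these ALDR minus DRAL differences passed, and that of Elovl6 turned without ALDR replicate 1. Mt2, Slc40a1, Pramef12, Ctps2, Arhgap19, Ptger3, Chpt1, Ptges and Orm3 were chosen by both comparisons.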

How the results depend on the processing

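The WAT count of 1953 genes stayed within 1.5 times with DESeq2's size factors, DESeq2, limma voom, no filter, only the compared groups (1353) and a replicate block (2127). It moved to 667 with the muscle score as covariate (324 higher, 343 lower), to 1116 with only the compared groups and a replicate block, and to 420 without both ALDR libraries with muscle counts. Leaving out 1 library gave 1102 to 2848 genes. The former diet count of 2037 was 2052 with the replicate block and 1308 to 2118 with 1 library left out, and 222 without the libraries with muscle counts. The BAT count of 279 was 584 with DESeq2, 6 with only the compared groups, 0 with these and a replicate block (edgeR, 1263 at an unadjusted p under 0.05), 124 with the replicate block alone, 66 with the muscle covariate and 35 to 737 with 1 library left out. The liver count of 3038 was 2028 with the replicate block and 2050 to 2526 with 1 library left out. The cause of these moves was not tested. The labels do not say what same-numbered libraries shared, and 1 of the 10 correlated best with its own number. For 88 named genes, 1418 of 1672 values under alternatives kept direction and side of the threshold, 251 kept direction only, 2 newly passed (Acaca and Lep without ALDR replicate 4) and Elovl6, at -0.16 to 0.50 with 1 library left out, turned without ALDR replicate 1. Low counts limit genes near 3 counts per library, such as Krt36.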

Other observations

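In the genes that differed between ALDR and DRAL, ALDR replicate 4 had a median position 57.5% of the way from the DRAL mean to the ALDR mean, against 104% to 118% for the other 4 ALDR libraries. Without it 2848 genes passed.

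Genes outside the lists were also called in WAT, BAT and liver alike. Crebrf, a regulator of the cellular stress response, differed by 0.55 in WAT, 0.51 in BAT and 1.05 in liver. Txnip, a thioredoxin-binding protein known to limit glucose uptake, differed by 0.92, 0.74 and 2.18 in the same order. Wee1, a kinase that holds back entry into mitosis, differed by 0.93, 0.91 and 2.45. These are log2 differences of ALDR minus DRAL past the threshold in each tissue, and the genes were chosen after their values were seen. In BAT the edgeR adjusted p was 0.0152 for Crebrf, 0.0164 for Txnip and 0.0295 for Wee1. The BAT count of 279 genes was unstable. It fell to 6 with only the compared groups and to 66 with the muscle covariate, and rose to 584 with DESeq2. Whether Crebrf, Txnip and Wee1 stayed past the threshold under the alternatives, in BAT or in WAT, was not tested.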
